A study of Mus musculus with 6 samples.

Results

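The genes of the Myc, Max and Mxd network were followed in mouse ESCs and in the NCs made from them with RA. The members were the rows of the deposited RNA-seq table whose name is Myc, Mycn, Max, Mxd1, Mxd3, Mxd4, Mxi1, Mnt or Mga, which gave 9 of the 22969 distinct gene names, each on 1 row. The proteins of the network share a basic helix-loop-helix leucine zipper, with which MYC, MYCN, the MXD proteins, MXI1, MNT and MGA each pair with MAX. MAX pairs that hold a MYC protein bind the E-box CACGTG and recruit acetyltransferase complexes to activate genes of growth and ribosome synthesis, whereas pairs that hold an MXD protein, MXI1 or MNT bind the same element and recruit the SIN3 and histone deacetylase corepressor. MGA also carries a T-box and, with MAX, forms a DNA-binding part of the polycomb complex PRC1.6, which keeps germline genes silent in ESCs. In ESCs, MYC proteins act downstream of LIF in self-renewal, and MXD proteins are known from cells that leave the cell cycle and differentiate.

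The cells were of E14Tg2a, an established line of mouse ESCs, at passages 37 to 40. ESCs were grown with leukemia inhibitory factor (LIF), which maintains pluripotency, and gave 3 samples. NCs (neuronal committed cells) were monolayers of the same line held for 48 h without LIF in 1 μM all-trans retinoic acid (RA), and also gave 3 samples. The table holds 1 FPKM value (fragments mapped per kilobase of transcript, scaled to sequencing depth) per gene and condition, pooled by the authors over 3 samples, so the spread between samples is unknown, no value carries an error, and no difference between ESCs and NCs could be tested.

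The promoters are shown first, because the network's own proteins bind CACGTG. Mxd4, the member with the largest difference, was among those found with this element, and a link between the element and the levels was not tested. RefSeq promoters on GRCm38.p6 were found for 8 of the 9 members and numbered 10, since Mxi1 has 3. The member without one was Myc, so no element was searched in the Myc promoter. Each is read here as the 250 bases before the transcription start, 5′ to 3′ on the strand of the gene. CACGTG, which reads the same on both strands, lay in 2 of the 10 member promoters and in 6.02% of the 32851 promoters of the same length. In Mxd4 its first base stood 219 bases before the start (chr5:34187711-34187960, minus strand), and in Mnt 123 bases before it (chr11:74830674-74830923, plus strand). The promoter of Mycn (chr12:12941837-12942086, minus strand) is shown for contrast, as that of the member with the highest level. It held no CACGTG but 3 matches to TTTGGCGC or TTTCGCGC, forms of the E2F element, searched on both strands after the sequence had been seen; a pair of these matches overlaps. TTTGGCGC occurred in 0.417% and TTTCGCGC in 0.256% of all promoters, and each in 1 of the 10. Capitals mark CACGTG in Mxd4 and Mnt and the E2F forms in Mycn.
Mxd4: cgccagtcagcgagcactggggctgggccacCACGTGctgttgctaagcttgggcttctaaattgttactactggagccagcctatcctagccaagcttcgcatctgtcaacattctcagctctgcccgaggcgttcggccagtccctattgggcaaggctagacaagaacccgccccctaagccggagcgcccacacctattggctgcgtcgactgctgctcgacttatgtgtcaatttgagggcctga
Mnt: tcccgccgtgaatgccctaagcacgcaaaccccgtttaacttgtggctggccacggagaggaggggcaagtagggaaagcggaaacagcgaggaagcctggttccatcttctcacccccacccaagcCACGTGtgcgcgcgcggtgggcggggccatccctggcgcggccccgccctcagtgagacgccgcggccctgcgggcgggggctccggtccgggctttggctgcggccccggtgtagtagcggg
Mycn: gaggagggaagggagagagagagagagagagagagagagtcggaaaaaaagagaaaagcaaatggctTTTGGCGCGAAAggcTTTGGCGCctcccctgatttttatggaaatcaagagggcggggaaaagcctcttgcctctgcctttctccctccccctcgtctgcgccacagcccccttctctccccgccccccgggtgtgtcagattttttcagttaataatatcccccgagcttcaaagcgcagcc
AGGTCA, the half-site bound by RA receptors, was searched on both strands and lay in 0 of the 10 member promoters and in 14.0% of all promoters. The GC content of the member promoters ran from 54.8% in Mycn to 78.4% in Mxd1, against a median of 52.4% over all promoters. The shares over all promoters were not matched for GC content. These matches describe the letters of a short window and not binding.

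**Figure D1:**
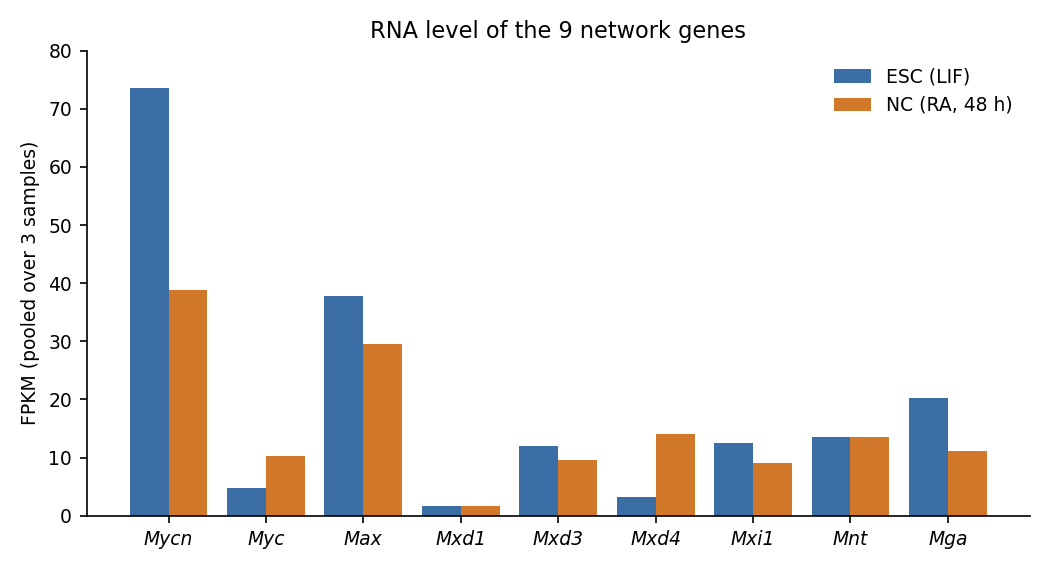
RNA level of the 9 network genes in ESCs (blue) and NCs (orange), as the authors' pooled FPKM on a linear axis that starts at 0, with no error bars because no sample values were given. Mycn and Max stand highest in both conditions, at 73.6 and 37.7 FPKM in ESCs and 38.9 and 29.6 FPKM in NCs, and Mxd4 goes from 3.18 to 14.0 FPKM.

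Of the MYC genes, Mycn was the most abundant in both conditions and Myc the scarcer. Mycn (chr12:12936093-12941914, minus strand), known for its role in embryonic and neural progenitor growth, had 73.6 FPKM in ESCs against 38.9 in NCs, 1.89-fold lower in NCs. Myc (chr15:61985391-61990374, plus strand), a direct target of the LIF pathway in ESCs, had 4.76 FPKM in ESCs against 10.3 in NCs, 2.18-fold higher in NCs. The MYC genes thus differed in opposite directions between the conditions, and in bulk RNA a smaller number of expressing cells cannot be told apart from less RNA per cell. The Mycn level exceeded that of 89.9% of the 13292 genes that reached 1 FPKM in either condition in ESCs and of 82.3% in NCs, whereas the Myc level exceeded 31.4% and 48.7% of them. The ratio of Mycn to Myc FPKM was 15.5 in ESCs and 3.76 in NCs. As a share of their summed FPKM, Mycn made up 93.9% in ESCs and 79.0% in NCs. That sum was 78.4 FPKM in ESCs against 49.3 in NCs, 1.59-fold lower in NCs as deposited.

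Mycl1 (Mycl), the other MYC gene and not one of the members, went the same way as Myc. Its level was 9.80 FPKM in ESCs against 23.7 in NCs, 2.42-fold higher in NCs. With Mycl1 included, the summed level of the MYC genes was 88.2 FPKM in ESCs against 73.0 in NCs, 1.21-fold lower in NCs as deposited and nearly equal when scaled to the FPKM sum. Mycn then held 83.5% of the sum in ESCs and 53.3% in NCs, Mycl1 11.1% and 32.5%, and Myc 5.39% and 14.2%. Mycl1 therefore stood above Myc in both conditions.

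Max, the common partner, differed little. Max (chr12:76937269-76962201, minus strand) had 37.7 FPKM in ESCs against 29.6 in NCs, 1.28-fold lower in NCs. The summed FPKM of its 8 partners among the members was 141.6 in ESCs and 108.3 in NCs, and Max over this sum was 0.266 in ESCs and 0.273 in NCs. The level of Max relative to these 8 partners was thus almost the same in both conditions, although the make-up of the partners differed. With Mga left out of the partners, the ratio was 0.311 in ESCs and 0.305 in NCs. The direction of the small difference therefore depended on the partners counted, and Mycl1 was not counted among them. Max alone stood for 21.5% of the summed FPKM of all 9 members in NCs, and for a like share in ESCs.

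Among the MXD genes, whose products repress the E-boxes that MYC proteins activate, Mxd4 stood apart. Mxd4 (chr5:34173883-34187720, minus strand), whose promoter with CACGTG is printed above, had 3.18 FPKM in ESCs against 14.0 in NCs, 4.40-fold higher in NCs. Its log2 ratio of 2.14 exceeded that of 95.4% of the 13292 genes. Its level moved from above 23.8% of these genes in ESCs to above 57.5% in NCs. An antisense gene, Gm42846, overlaps Mxd4, and 5.39% of the 50-base words of the Mxd4 transcripts also occur in transcripts of other genes, mostly of Gm42846. Strand-aware counting was not stated in the sources used here, so fragments of this pair could not be separated. The genes on either side of Mxd4 differed by less than 1.5-fold as deposited, and Zfyve28 by more than that when scaled to the FPKM sum. Haus3, at 4356 bp, had 21.2 FPKM in ESCs against 23.3 in NCs, and Zfyve28, at 7173 bp, had 2.47 and 3.52 FPKM.

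The other MXD genes were lower in NCs by less than 1.5-fold as deposited, and Mxd1 changed sign when scaled to the FPKM sum. Mxi1 (chr19:53310518-53375810, plus strand), also known as MXD2 at the protein level, had 12.6 FPKM in ESCs against 9.11 in NCs, 1.38-fold lower. Mxi1 overlaps Gm10197 and AC133451.2 on the opposite strand, and 2.13% of its 50-base words occur in other genes, mostly in Gm10197. Mxd3 (chr13:55325168-55329823, minus strand), which differs from its relatives in being expressed in proliferating cells, had 11.9 and 9.52 FPKM, 1.25-fold lower in NCs. Mxd3 overlaps Prelid1 on the opposite strand, which had 219.7 FPKM in ESCs against 224.7 in NCs. Of the 50-base words of Mxd3, 2.22% occur in other genes, all of them in Prelid1. As for Mxd4, fragments of this pair could not be separated. Mxd1 (chr6:86647042-86669161, minus strand), the founding MXD gene, was the lowest member in both conditions, with 1.73 FPKM in ESCs against 1.63 in NCs. At the low-value step given below, the Mxd1 value in ESCs stood for about 27 fragments if all came from its shortest coding transcript of 418 nt and about 562 if all came from the longest of 4666 nt.

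The make-up of the summed MXD level therefore differed between the conditions. The sum over Mxd1, Mxd3, Mxd4 and Mxi1 was 29.4 FPKM in ESCs against 34.3 in NCs, 1.16-fold higher in NCs as deposited and by more when scaled to the FPKM sum. In ESCs, Mxi1 held 42.7% and Mxd3 40.6% of this sum, and Mxd4 10.8%. In NCs, Mxd4 held 40.9%, Mxd3 27.8% and Mxi1 26.6%. Mxd1 held 5.89% in ESCs and 4.76% in NCs. Mxd4 was thus the only MXD gene with a larger share in NCs, and these shares do not depend on how the conditions are scaled to each other. The MXD sum and shares, and the repressor sum given below, may include fragments of the genes that overlap Mxd3, Mxd4 and Mxi1.

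**Figure D2:**
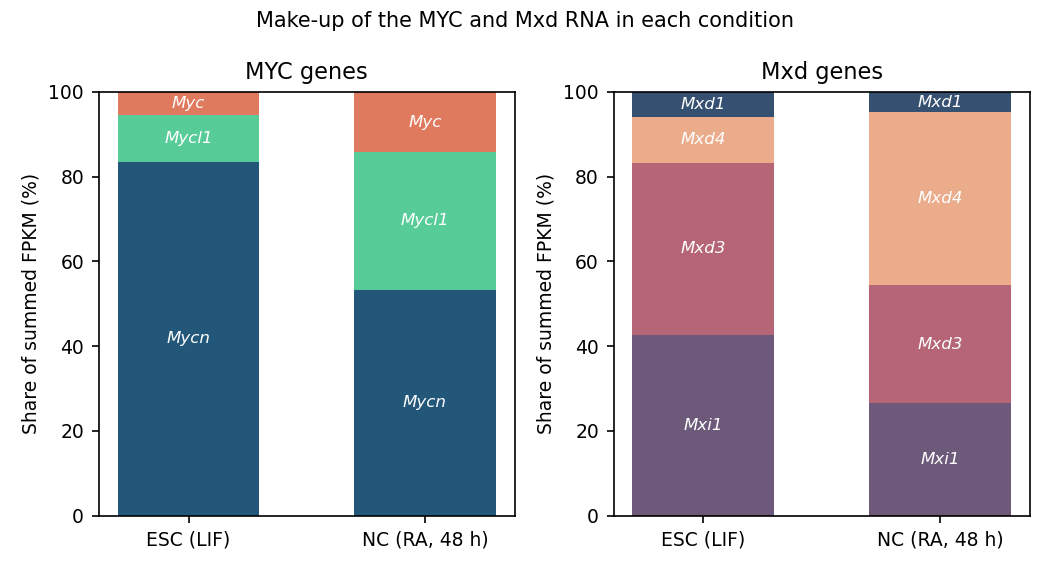
Share of each gene in the summed FPKM of the MYC genes (left, with Mycl1) and of the MXD genes (right) in ESCs and NCs; each stacked bar adds to 100%. Mycn goes from 83.5% to 53.3% of the MYC sum, and Mxd4 from 10.8% to 40.9% of the MXD sum.

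Mnt (chr11:74830920-74845725, plus strand), a widely expressed repressor that pairs with MAX and, as printed above, also has CACGTG in its promoter, was nearly equal at 13.6 FPKM in ESCs against 13.5 in NCs. Thus, of the pair of members found with the element, one differed 4.40-fold and the other hardly at all. Myc, without a promoter in the search, is not covered. Summed with the MXD genes, the 5 repressor members had 43.0 FPKM in ESCs against 47.8 in NCs, 1.11-fold higher in NCs as deposited and by more when scaled to the FPKM sum. Myc and Mycn together over these repressors gave a ratio of 1.82 in ESCs and 1.03 in NCs. With Mycl1 counted among the activators, the ratio was 2.05 in ESCs and 1.53 in NCs. Both forms of the ratio were lower in NCs, and both describe RNA and not protein.

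Mga (chr2:119897228-119969581, plus strand), the largest protein of the network, had 20.2 FPKM in ESCs against 11.2 in NCs, 1.80-fold lower in NCs. It was the third most abundant member in ESCs and the fifth in NCs. Its neighbours were Tyro3, with 28.9 FPKM in ESCs against 20.8 in NCs, and Mapkbp1, with 4.19 and 4.91 FPKM. Only 0.559% of the 50-base words of Mga are shared with other genes.

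Read in order of level, ESCs had Mycn, Max, Mga, Mnt, Mxi1, Mxd3, Myc, Mxd4 and Mxd1. Mycn stood 1.95-fold above Max, and Max 1.87-fold above Mga. In NCs the order was Mycn, Max, Mxd4, Mnt, Mga, Myc, Mxd3, Mxi1 and Mxd1, and Mycn stood 1.32-fold above Max. The middle of the network was packed more closely in NCs, where the 6 genes from Mxd4 to Mxi1 lay between 14.0 and 9.11 FPKM. Neighbours there differed by 1.03-fold to 1.21-fold, and without sample values their order cannot be taken as settled. Mxd1 was set off in NCs, 5.59-fold under Mxi1. The summed level of the 9 members was 179 FPKM in ESCs against 138 in NCs, 1.30-fold lower in NCs as deposited. When scaled to the FPKM sum, this difference is smaller.

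Counted with a limit of 2-fold, 2 of the 9 members, Myc and Mxd4, were higher in NCs, where 12.5% of the 13292 genes were, and 0 of the 9 were lower, where 10.6% of the genes were. With a limit of 1.5-fold, Mycn and Mga made 2 of 9 lower, against 19.3% of the genes, and the same pair of members was higher, against 20.6%. With 4-fold, Mxd4 made 1 of 9 higher, against 5.1% of the genes, and 0 of 9 were lower, against 3.67%. With so few members, these counts single out no direction. The median log2 ratio was -0.33 over the members and -0.03 over the 13292 genes, whose quartiles were -0.45 and 0.44. The values of single members are what the table gives: Mxd4 lay above the upper quartile by a wide margin, Myc above it, and Mycn, Mga and Mxi1 below the lower quartile.

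**Figure D3:**
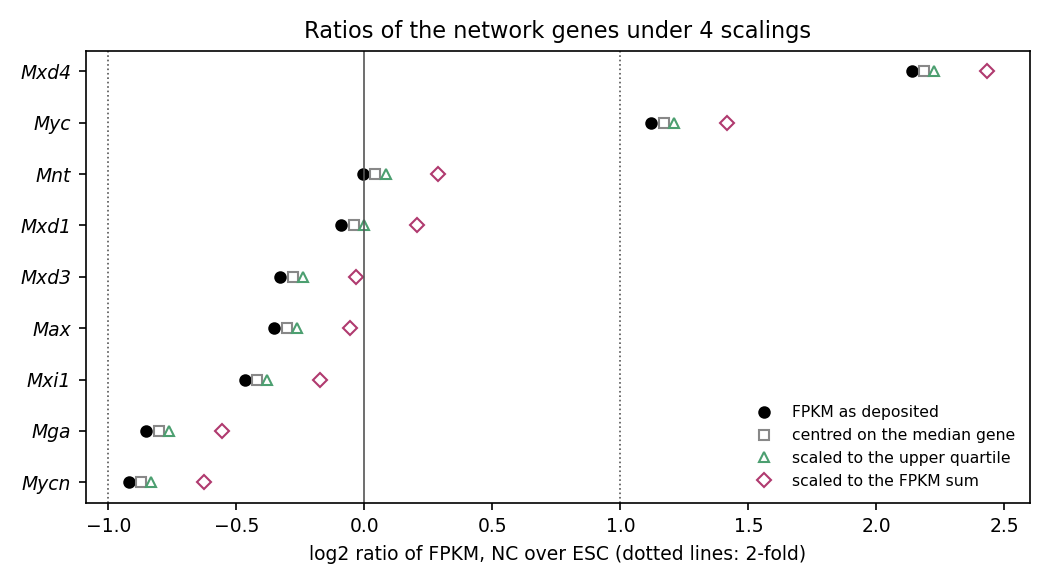
log2 ratio of NC over ESC FPKM for the 9 genes, as deposited (filled circles) and under 3 other scalings (open symbols); dotted lines mark 2-fold. Mxd4 and Myc lie right of 2-fold and Mycn and Mga left of 0 under all 4 scalings, whereas Mnt and Mxd1 lie near 0 and cross it under the scaling to the FPKM sum.

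The scale between the conditions bears on the small differences. The FPKM summed to 770592 in ESCs and 628679 in NCs, and dividing by these sums raised every log2 ratio by 0.29, which made the log2 ratio 1.42 for Myc, 2.43 for Mxd4, -0.63 for Mycn and -0.56 for Mga. Under that scaling Max, at -0.06, and Mxd3, at -0.03, were close to level, Mxi1 was at -0.17, and Mxd1, at 0.20, and Mnt, at 0.29, changed sign. Centring on the median gene and scaling to the upper quartile raised the ratios by 0.05 and 0.09 and changed the sign of Mnt alone, to 0.04 and 0.08. Sequencing depth per sample is not known. From the lowest values, in a step chosen after the data were seen and with fragments taken as 200 bases, 1 fragment in 1 kb of transcript was worth about 0.0138 FPKM in ESCs against 0.0135 in NCs. The step was sought only within a narrow range set beforehand, so the likeness of these values was partly fixed. It rests on 93 of 684 low values in ESCs and 58 of 758 in NCs. Of the markers of the cells, 10 pluripotency genes summed to 5983 FPKM in ESCs against 941 in NCs, and 7 RA response genes to 28.4 and 1709 FPKM. The 14 neuronal markers summed to 206 FPKM in ESCs against 31.3 in NCs, and 5 of them were at least 2-fold higher and 7 at least 2-fold lower in NCs, among the latter Stmn2, at 142 and 11.8 FPKM, and Tubb3, at 33.4 and 7.54 FPKM. Of the 14, 9 reached 1 FPKM in ESCs and 5 in NCs, and Dcx, Elavl3, Neurod1, Neurog1, Neurog2 and Syp were under 1 FPKM in NCs, so most of the neuronal markers were under 1 FPKM at 48 h. Of 6 neural progenitor markers, all reached 1 FPKM in NCs and their sum was 60.0 FPKM in ESCs against 180.2 in NCs. The sum of 10 primitive or visceral endoderm markers was 22.1 FPKM in ESCs against 47.0 in NCs, with Ttr and Afp under 1 FPKM, and that of 6 fibroblast markers was 21.6 and 47.5 FPKM. The part of other cell types in the levels of the network genes was not tested.

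Lists of partners and known targets were read next to the members, each by its counts at 2-fold and its median, without a test. The counts as deposited stand against all 13292 genes, of which 12.5% were at least 2-fold higher and 10.6% at least 2-fold lower. Scaling to the FPKM sum raises every log2 ratio by 0.29, and the shares of all genes past 2-fold under it were not computed. In the MLX arm, which senses glucose through related proteins, Mlx had 25.3 FPKM in ESCs against 18.6 in NCs and Mlxip 9.81 and 11.8 FPKM. Mlxipl, which encodes ChREBP, had 4.85 and 2.17 FPKM, 2.23-fold lower in NCs as deposited and within 2-fold when scaled to the FPKM sum. With Mycl1, the extended network thus had 1 of 4 genes past 2-fold in each direction. Of 18 genes of the SIN3 and histone deacetylase complex, which the repressors need, 0 were past 2-fold in either direction and the median log2 ratio was -0.02 as deposited and 0.27 scaled to the FPKM sum. They ran from Hdac1, with 139 FPKM in ESCs against 170 in NCs, to Fam60a, with 245 and 124 FPKM. Sin3a, the scaffold, had 56.1 and 36.9 FPKM. Of 23 genes of coactivators, 0 were past 2-fold in either direction, with a median log2 ratio of -0.16 as deposited and 0.13 scaled to the FPKM sum. They ran from Meaf6, at 15.9 and 23.8 FPKM, to Ruvbl2, at 195 and 104 FPKM, and Trrap, the large adaptor bound by MYC, had 15.9 FPKM in both conditions. The adaptor complexes on both sides of the network were therefore within 2-fold, unlike Mxd4 and Myc.

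Of 15 genes that act on MYC protein stability, 0 were at least 2-fold higher and 1 was at least 2-fold lower in NCs. The latter was Usp28, a deubiquitinase known to stabilise MYC against the ligase FBW7, with 91.2 FPKM in ESCs against 17.4 in NCs, 5.25-fold lower. Fbxw7, which encodes that ligase, had 8.19 and 9.84 FPKM. The highest log2 ratio of the list was that of Trim32, with 10.8 FPKM in ESCs against 15.0 in NCs. The RNA that encodes the stabilising enzyme was thus lower in NCs, where Myc RNA was higher and Mycn RNA lower.

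The subunits that join MGA and MAX in PRC1.6 are taken next. Of 12 genes, 2 were at least 2-fold higher in NCs and 1 lower as deposited, 3 and 0 when scaled to the FPKM sum, and the median log2 ratio was 0.14. As deposited these are 16.7% and 8.33% of the list, near the 12.5% and 10.6% over all genes. Yaf2 had 8.79 FPKM in ESCs against 23.2 in NCs, 2.64-fold higher, and Ring1, a ubiquitin ligase subunit named after its value was seen, had 4.09 and 10.3 FPKM, 2.53-fold higher. L3mbtl2, a subunit particular to this complex, had 41.1 and 19.8 FPKM, 2.08-fold lower in NCs as deposited and within 2-fold when scaled to the FPKM sum or the upper quartile. Pcgf6, the defining polycomb subunit, had 34.3 and 25.7 FPKM, and E2f6, which encodes another DNA-binding protein of the complex, 11.9 and 22.6 FPKM. Mga, Pcgf6 and L3mbtl2 were thus lower in NCs under all 4 scalings, and E2f6 was higher.

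Of 16 germline genes known as targets of this complex, 15 passed the limit of 1 FPKM, 4 were at least 2-fold higher and 4 at least 2-fold lower in NCs, and their median log2 ratio was 0.28. These are 26.7% of the list in each direction, against 12.5% and 10.6% of all genes. Scaled to the FPKM sum, which raises the log2 ratio of every gene alike, 7 were higher and 4 lower. With 1 FPKM required in both conditions, 3 were at least 2-fold higher, since Slc25a31 reached it in NCs alone. With a pseudocount of 1 there were 2. The shares of all genes under these settings were not computed. The germline genes thus differed in both directions. Stra8, the gate to meiosis and itself a direct RA target that also stands among the RA response markers, had 5.15 FPKM in ESCs against 340.2 in NCs, 66.0-fold higher. The other genes past 2-fold were named after their values were seen: Taf7l, Slc25a31 and Dazl were 3.48-fold, 2.63-fold and 2.18-fold higher. Sycp3, of the synaptonemal complex, had 41.1 FPKM in ESCs against 8.73 in NCs, 4.71-fold lower, and the meiotic cohesin and chromosome axis genes Smc1b, Hormad1 and Stag3 were 4.54-fold, 4.11-fold and 2.46-fold lower. Sycp1, another gene of the synaptonemal complex and named after its value was seen, had 2.80 and 2.25 FPKM.

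The known targets of MYC proteins in ribosome synthesis and metabolism were mostly lower in NCs. Of 37 genes of the nucleolus and ribosome synthesis, 36 had a lower FPKM in NCs as deposited, and 29 after scaling to the FPKM sum, where 52.0% and 33.1% of the 13292 genes were lower. Their median log2 ratio was -0.49 as deposited and -0.20 scaled to the sum, and 1 was at least 2-fold lower as deposited, 0 were when scaled to the sum, and 0 were at least 2-fold higher. The gene past the limit was Rrp9, with 79.3 FPKM in ESCs against 33.2 in NCs, and the highest ratio was that of Imp4, with 21.6 and 22.9 FPKM. The levels of these genes and of the MYC genes were not tested for a link.

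Of 32 metabolic and growth targets, 27 had a lower FPKM in NCs as deposited and 22 after scaling to the FPKM sum, with medians of -0.61 and -0.32. At least 2-fold lower were 4, of which Hk2, a hexokinase of glycolysis, had 59.5 FPKM in ESCs against 14.5 in NCs, 4.12-fold lower. The others, named after their values were seen, were Tert, Srm and Gart, which were 2.36-fold, 2.17-fold and 2.01-fold lower, and with scaling to the FPKM sum Hk2 alone stayed past 2-fold. Ccnd2, which encodes cyclin D2, went against the list, with 1.67 FPKM in ESCs against 51.5 in NCs, 30.8-fold higher.

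Of 14 genes known to be lowered by MYC, 5 were at least 2-fold higher and 2 at least 2-fold lower in NCs, and the median log2 ratio was 0.13. These are 35.7% and 14.3% of the list, against 12.5% and 10.6% of all genes. At any fold, 7 of the 14 were higher and 7 lower in NCs as deposited. The highest ratio was that of Cdkn2c, which encodes the cell cycle inhibitor p18INK4C, with 0.589 FPKM in ESCs against 2.45 in NCs. Cdkn2c thus reached 1 FPKM in NCs alone. With 1 FPKM required in both conditions, 4 were at least 2-fold higher, and with a pseudocount of 1 there were 3. The shares of all genes under these settings were not computed. Cebpa, Cdkn1c, Gata6 and Col1a1, named after their values were seen, were 2.70-fold, 2.34-fold, 2.31-fold and 2.25-fold higher. Gata6 also stands among the endoderm markers and Col1a1 among the fibroblast markers, both of whose sums were higher in NCs. Ndrg2, with 34.7 FPKM in ESCs against 2.19 in NCs, was 15.9-fold lower, and its relative Ndrg1, also named after its value was seen, was 5.62-fold lower.

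**Figure D4:**
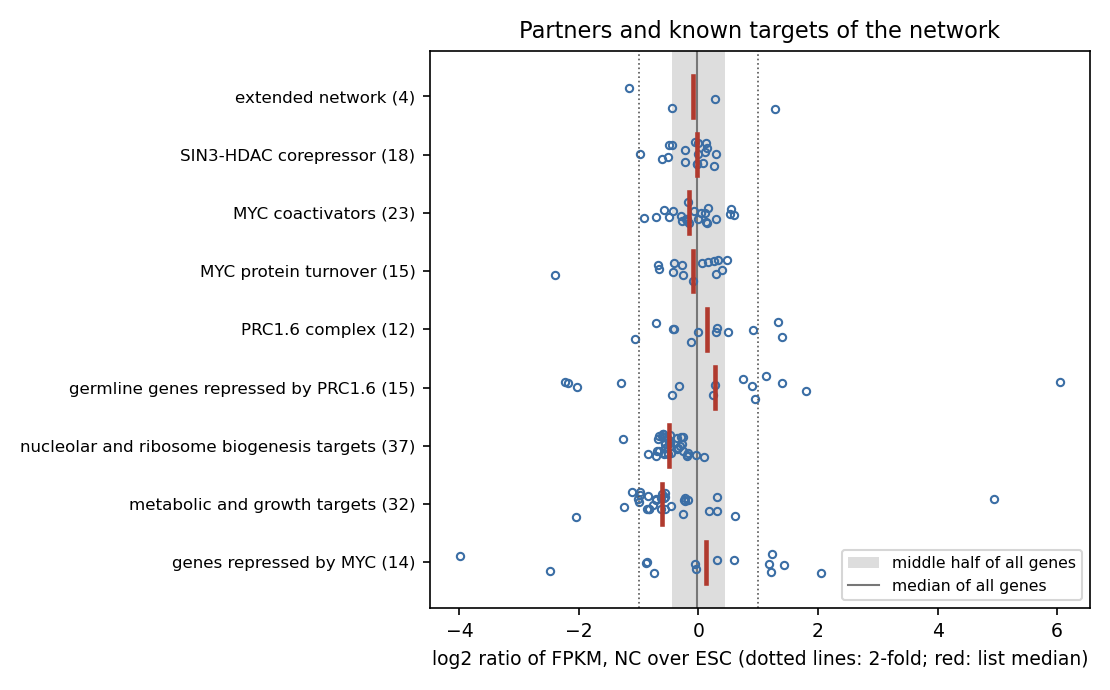
log2 ratio of NC over ESC FPKM for each gene (open circles) of 9 lists of partners and targets, with the number of genes in brackets, the median of each list as a red bar, and the median and quartile range of all genes as a line and a grey band. The nucleolar list has its median at -0.49 and the metabolic list at -0.61, both left of the grey band, whereas the SIN3 and coactivator lists centre within it.

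The genes with a pattern most like a member were taken by the distance between log2 FPKM values in the 2 conditions, among 11716 genes. With only 2 conditions many genes come close, and likeness says nothing of shared function. Nearest to Myc were Dusp14, with 4.85 FPKM in ESCs against 10.6 in NCs, Hist3h2ba and Nmb, at distances of 0.05 to 0.08. Nearest to Mycn were Cbr1, with 75.1 and 39.9 FPKM, Shmt1, which is also in the metabolic list, and Aldh9a1, at 0.04 to 0.09. Nearest to Max were Atp6v1h, Xpot and Acads, at 0.02 to 0.03. Nearest to Mga were 2310008H04Rik, Znrf2 and Zfp143, at 0.03 to 0.05.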

How the data were processed

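RNA was sequenced from 3 samples of ESCs and 3 of NCs. Per the labels and the study's methods, the authors aligned the reads to mm10 with Bowtie2 2.1.0 through TopHat2 2.0.8, then ran Cufflinks 2.0.2 and Cuffdiff, whose version is not given in the sources used here. The deposited table holds 1 FPKM per gene and condition, estimated by the authors over 3 samples. Its NC column is headed FPK and was read as FPKM. The authors' own log2 fold changes, the score of their test statistic, and their p-values and q-values also stand in the deposited table and were not used here. No columns of single samples stand in it.

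Rows of 1 gene name were summed, and ratios were taken without a pseudocount. A gene was counted with an FPKM of at least 1 in at least 1 condition, and 2-fold was the limit. No test was run, because the table holds 1 value per condition. All members and the extended network were named, as were the highest and lowest log2 ratio of each list, the defining genes of complexes, and the 3 genes nearest in pattern to Myc, Mycn, Max and Mga. Other names are marked as chosen after their values were seen. The members and lists were chosen with earlier results of these data known, and the lists were written from textbook knowledge. Gene positions, overlaps and shared 50-base words came from GENCODE M21 on GRCm38, and promoters from RefSeq on GRCm38.p6. The computation was tested on simulated data. The alternatives were 3 other scalings, pseudocounts of 0.1 and 1, limits of 1.5-fold and 4-fold, other filters, 1 row per name, and other genes in the sums. Python 3.11.15, numpy 2.4.6, pandas 2.3.3 and matplotlib 3.10.9 were used. The ChIP-seq and other assays of the study were not analysed here.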

Additional observations from a re-analysis of the deposited data

How the results depend on the processing

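No paired analysis was possible because the table holds 1 pooled value per condition and carries no replicates, and for the same reason no replicate could be left out. Of 108 values recomputed under an alternative, 99 changed little: a log2 ratio past 2-fold stayed past it in its direction, one within 2-fold stayed within it and moved by at most 1.5-fold, and a count or a ratio within a condition moved by at most 1.5 times. Of the 54 log2 ratios of members, 53 met this, among them 4 near 0 that changed sign. Part of this was fixed in advance. Each member has 1 row, so taking 1 row per name could not change its ratio. Each scaling added 1 constant of at most 0.29 to every log2 ratio, which is less than 1.5-fold. All 9 members reached 1 FPKM in both conditions, so the other filters could not change their counts. With a pseudocount of 1, the log2 ratio of Myc was 0.98, under 2-fold, and 1 member instead of 2 was at least 2-fold higher. With a limit of 4-fold, 1 member was higher, and with 1.5-fold, 2 were lower instead of 0. The lists of partners and targets hold 168 distinct genes, counted where they reached 1 FPKM in either condition. Of these, 13 were at least 2-fold higher and 14 lower, against 12.5% and 10.6% of all genes. With a limit of 1.5-fold these were 20 and 45, against 20.6% and 19.3% of all genes. With 4-fold they were 3 and 7, against 5.1% and 3.67%. Scaled to the FPKM sum, 17 were at least 2-fold higher and 8 lower, for which no share of all genes was computed. The sign changes were of Mxd1 (0.20 scaled to the FPKM sum) and of Mnt (0.29, 0.04 and 0.08 under the 3 other scalings). The ratios within a condition stayed within 1.5 times when Mycl1 or Mga was added or Mnt or Mga left out. The unknown depth and spread between samples limit every small difference.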

Other observations

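Pvt1, a long noncoding RNA gene that starts 47612 bp beyond the end of Myc, was looked up after the values of Myc were seen. It had 4.45 FPKM in ESCs against 0.850 in NCs, 5.23-fold lower in NCs, whereas Myc was 2.18-fold higher. The neighbours therefore differed in opposite directions, in values that carry no replicate error. Mycs, a retroposed MYC gene, was at 0.00552 and 0.0128 FPKM.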
